A study of Homo sapiens with 2 samples.

Results

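The genes described here govern entry into the cell cycle or are altered in melanoma, and the question was where the chromatin remodeller CHD4 lay along them. Of the 60126 CHD4 peaks of the series, 24 overlapped the 10 genes *MYC*, *TERT*, *CCND1*, *CDK2*, *CDK4*, *CDK6*, *CDKN1A*, *CDKN1B*, *CDKN2A* and *MDM2* or the 10000 bp before their starts. The genes were listed by name, and their peaks were found by position alone, with 1 bp of overlap counting. Gene positions are the gene records of GENCODE release 44 on GRCh37, the build that hg19 names.

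The samples were 1 CHD4 ChIP library and 1 input library from 501Mel, an established human melanoma line, for which the labels give no treatment or genetic change. Both come from fixed, sonicated chromatin. The deposited list gives 1 set of peaks for the ChIP library, without read counts per peak, so the reads behind each value are not given here, and there is no spread between replicates. No test between conditions was made, and shares carry Wilson 95% intervals that cover counting error only. A peak list holds no expression values, so the melanoma label was not checked against marker genes.

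CHD4 is the ATP-driven motor of the NuRD complex, which also carries histone deacetylases and is best known for keeping genes at low activity. Cyclin D1, the product of *CCND1*, activates the kinases CDK4 and CDK6, which phosphorylate RB and start the cell cycle, and CDK2 acts after them with cyclins E and A. The inhibitors p21 (*CDKN1A*), p27 (*CDKN1B*) and p16 (*CDKN2A*) hold these kinases back. *CDKN2A* also encodes ARF, which restrains MDM2, the ligase that degrades p53. *MYC* encodes a growth-promoting factor that binds E-boxes, and *TERT* the catalytic part of telomerase.

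Every one of the 10 genes had a CHD4 peak, of which the strongest were at *CDK2*, *CDK6* and *CDK4*. The fold enrichment, the authors' ratio of ChIP signal to background averaged over a peak, ran from 2.78 to 3.99 with a median of 3.29, against 3.09 for all peaks of the list and for the 39738 peaks at protein-coding genes. Without the 10 peaks of *CDK6* the median was 3.06. A q of at most 0.01 was given for 16 of the 24 peaks, or 66.7% (46.7% to 82.0%), against 48.5% of all peaks. The paper's reporting summary also names a q of 0.01 as a setting of the peak call. All peaks of the list were nevertheless reported, so these shares do not separate peaks that passed the call from peaks that failed it. How the listed q of a peak relates to that setting was not tested. The highest −log10 q was 3.66, so none reached 5, a level that 2.23% of all peaks reached. The peaks were short, with a median length of 411.0 bp against 613.0 bp in the list.

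**Figure D1:**
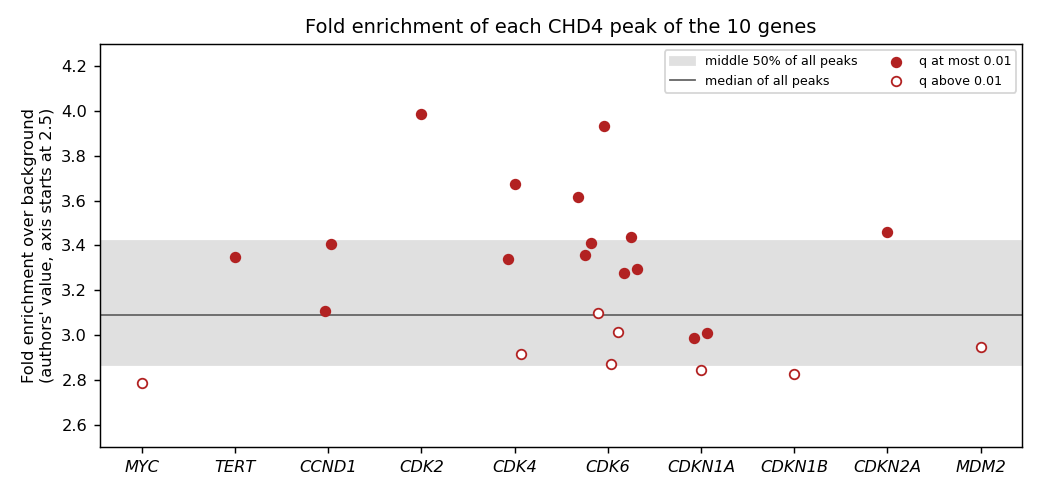
Fold enrichment (CHD4 ChIP against background, y axis, which does not start at 0) for each of the 24 peaks, by gene; filled points have a q of at most 0.01, the grey band is the middle 50% of all 60126 peaks and the line their median. *CDK2* and *CDK6* hold the highest points, at 3.99 and 3.93, and *MYC* the lowest, at 2.78.

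The presence of a peak has to be read against how often genes carry one. Among 20098 protein-coding genes, 63.4% had at least 1 peak by the same rule, against 10 of these 10 (72.2% to 100%). For genes whose searched length was within 25% of a member's, this share ran from 48.9% for the length of *CDK2* to 81.2% for that of *CDK6*. A peak with a q of at most 0.01 was present at 7 of the 10, all but *MYC*, *CDKN1B* and *MDM2*, against 48.4% of protein-coding genes. A peak with a −log10 q of at least 5 was present at 0 of 10 (interval up to 27.8%), against 5.48%. In 6 of the 10 (*MYC*, *TERT*, *CDK2*, *CDKN1B*, *CDKN2A* and *MDM2*) there was exactly 1 peak, which was also the median over protein-coding genes.

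Most of the peaks lay away from gene starts. A peak within 1000 bp of the start was found at 2 of 10 genes, *CCND1* and *CDK4* (20.0%, 5.67% to 51.0%), against 33.9% of protein-coding genes. Measured from the start of the canonical transcript, which differs from that of the gene record at several genes, it was again *CCND1* and *CDK4*, against 35.2% of the 19819 protein-coding genes with a canonical transcript. Of the 24 peaks, 20 had their centre after the start of the gene record and 4 before it. This split depends on the start used. Measured from the canonical start, every peak of *CDK4* and the peaks of *CDKN1B* and *CDKN2A* also had their centre before it. No peak changed side in the other direction. The 20 include the 10 peaks of *CDK6*, where the gene made up 231653 bp of the 241653 bp searched. These counts were not set against the length searched on each side of the starts.

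**Figure D2:**
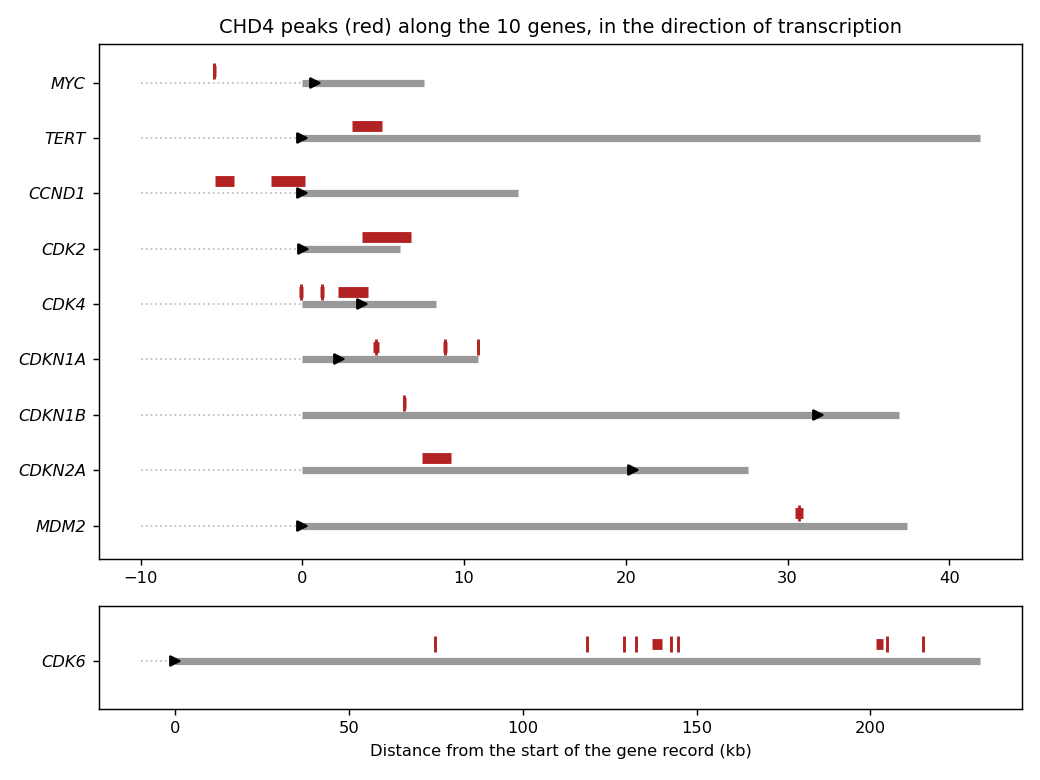
CHD4 peaks (red) along each gene (grey bar) in the direction of transcription; the x axis is the distance from the start of the gene record in kb, dotted lines mark the 10 kb searched before it, and black arrowheads the canonical transcript start. *CCND1* and *CDK4* have a peak over the start, whereas the 10 peaks of *CDK6* (lower panel, other scale) all lie at least 74550 bp into the gene.

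Sequences are shown for the strongest peak and for the peaks at the starts of *CDK4*, taken from the plus strand of GRCh37 outside annotated UTRs. Capitals mark matches to CACGTG, the E-box bound by MYC and MITF, or to TGANTCA, a pattern wider than the AP-1 site (TGACTCA or TGAGTCA). Any match to TGANTCA is called an AP-1 match here, also one with A or T in the middle, such as TGATTCA in *CDK2*. Both motifs read the same on the 2 strands and a match to the E-box can share 2 letters with a match to the other. The first is the whole of *CDK2* intron 6 inside the strongest peak (chr12:56365032-56365304), and the next is at the outer start of *CDK4* (chr12:58149797-58150003), where neither motif occurs. The last, from just before the canonical start of *CDK4* (chr12:58146262-58146384), is shown for its 3 E-boxes.

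CDK2 intron: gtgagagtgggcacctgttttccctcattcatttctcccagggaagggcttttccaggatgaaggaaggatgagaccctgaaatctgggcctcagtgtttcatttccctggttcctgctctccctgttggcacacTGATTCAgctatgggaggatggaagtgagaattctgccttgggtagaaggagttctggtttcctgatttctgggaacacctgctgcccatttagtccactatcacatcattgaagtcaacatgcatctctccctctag

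CDK4 outer start: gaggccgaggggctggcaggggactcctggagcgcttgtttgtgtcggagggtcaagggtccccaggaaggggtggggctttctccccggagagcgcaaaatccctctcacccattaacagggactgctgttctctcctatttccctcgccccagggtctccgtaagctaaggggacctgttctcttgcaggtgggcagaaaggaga

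CDK4 canonical start: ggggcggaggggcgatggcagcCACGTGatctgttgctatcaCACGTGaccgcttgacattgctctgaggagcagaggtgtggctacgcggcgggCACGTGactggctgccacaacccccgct

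*CCND1* (ENSG00000110092; chromosome 11, 69455924 to 69469242, plus strand) had 2 peaks, both on its 5′ side. The stronger ran from 69454017 to 69456108, with a fold enrichment of 3.41 (−log10 q of 2.35), and 74.2% of all peaks had a lower fold enrichment. It covered 1907 bp before the start and the first 185 bp of exon 1. The other, from 69450530 to 69451700, ended 4224 bp before the start, with a fold enrichment of 3.11 (−log10 q of 2.03.) A further peak began just beyond the searched stretch, 570 bp after the end of the gene.

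*CDK4* (ENSG00000135446; chromosome 12, 58141510 to 58149796, minus strand) had 3 peaks, all in its 5′ part. GENCODE places the start of the gene record 3703 bp before that of the canonical transcript, at 58146093. The longest peak, from 58145757 to 58147616, lay over that canonical start and covered all 136 bp of its exon 1, 201 bp of intron 1 and 1523 bp before it, with a fold enrichment of 3.34 (−log10 q of 2.26.) The strongest, from 58148431 to 58148680, had a fold enrichment of 3.68 (−log10 q of 2.91) and lay 2338 bp from the canonical start. The weakest, at the outer start from 58149779 to 58150003, had 2.92 and a −log10 q of 1.50, and it also overlapped *MARCHF9*, a neighbouring gene on the other strand. *MARCHF9* starts at 58148886, between the strongest and the weakest peak and 893 bp from the weakest. To which gene these peaks relate cannot be told from positions. Among 4182 genes of similar searched length, 11.8% (10.8% to 12.8%) had at least 3 peaks.

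The *CDK4* peak over the canonical start held 4 E-boxes within 174 bp, of which 3 are in the stretch printed above. At least 4 were present in 96 of 60099 peaks on chromosomes 1 to 22 and X, or 0.160% (0.131% to 0.195%). Long peaks can hold more matches, and peak length was not matched in this share.

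*CDK6* (ENSG00000105810; chromosome 7, 92234235 to 92465887, minus strand) is the longest of the genes, with 231653 bp, and held 10 of the 24 peaks. None was near its start. The nearest lay 74550 bp into the gene, and no peak was listed in the 108517 bp beyond the searched stretch on that side. All 10 were intronic, with 6 in intron 4, 2 in intron 5 and 1 each in introns 3 and 6. Their fold enrichments ran from 2.87 to 3.93 with a median of 3.33, and 7 had a q of at most 0.01.

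The 6 peaks of intron 4 lay within 26591 bp, from 92321126 to 92347716, and covered 4922 bp of it. The strongest peak of the gene was among them, from 92323165 to 92323426, with a fold enrichment of 3.93 (−log10 q of 3.44.) The longest, of 3074 bp, had the lowest fold enrichment, 2.87. A stretch of 30000 bp that opens with a peak held at least 6 peaks for 11.2% of all peaks (11.0% to 11.5%), so such a run was not rare in the list.

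The number of peaks of *CDK6* has to be set against its length. Among 1001 protein-coding genes of similar searched length, the median was 4 peaks, and 23.7% (21.1% to 26.4%) had at least 10. Density was 4.14 peaks per 100 kb in the gene and the stretch before it. In the 1000000 bp on either side of it the density was 0.75 per 100 kb, against a median of 2.70 around protein-coding genes.

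**Figure D3:**
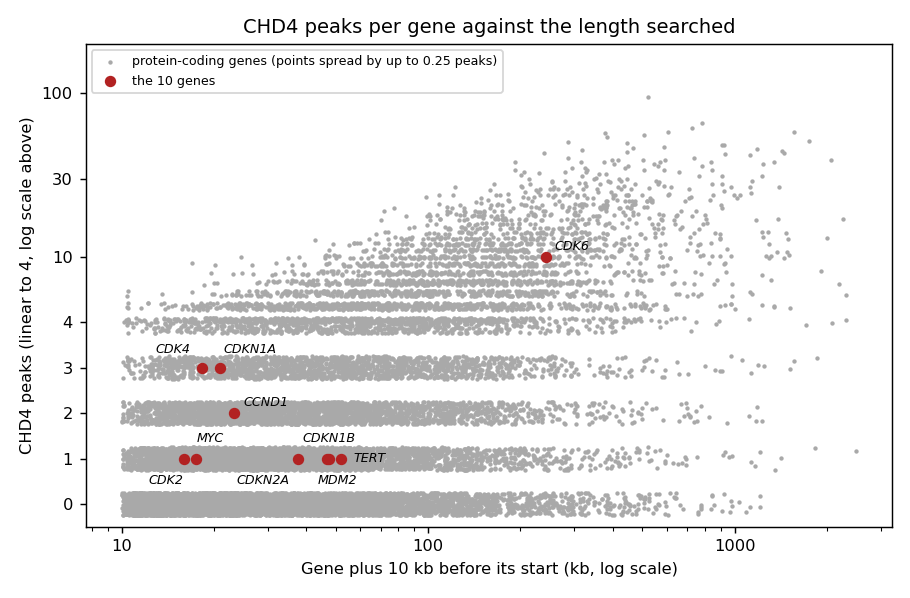
Number of CHD4 peaks (y axis, linear to 4 and on a log scale above) against the length searched (gene plus 10 kb before its start, in kb, log scale) for 20098 protein-coding genes (grey, spread vertically so that they can be told apart) and the 10 genes (red). Counts rise with length, and *CDK6*, with 10 peaks, lies inside the cloud of genes of its length.

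*CDK2* (ENSG00000123374; chromosome 12, 56360565 to 56366573, plus strand) carried the strongest of the 24 peaks, at its 3′ end. It ran from 56364248 to 56367253, with a fold enrichment of 3.99. Its −log10 p was 6.47 and its −log10 q 3.66, and 94.3% of all peaks had a lower fold enrichment. It covered 580 bp of intron 5, exons 6 and 7 and intron 6 in full, and 680 bp beyond the end. Among genes of similar searched length, 6.70% had a peak at least as strong.

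That region is shared with *PMEL*, which encodes a structural protein of melanosomes and is transcribed from the minus strand. The start of the *PMEL* gene record lay under the peak, and its canonical start, at 56359826, was 4422 bp away. At the start of the *CDK2* gene record, 3683 bp from the peak, no peak was listed. The annotated start of another *CDK2* transcript also lay under the peak. A list of positions cannot say to which of the 2 genes the peak relates.

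All peaks of the inhibitor genes *CDKN1A* and *CDKN1B* had fold enrichments below the median of the list. The peak of the inhibitor gene *CDKN2A*, described below, lay above that median, at 3.46. *CDKN1A* (ENSG00000124762; chromosome 6, 36644237 to 36655114, plus strand) had 3 short ones, in intron 1, in intron 2 and over the end of exon 3. Their fold enrichments were 2.99, 2.85 and 3.01, against a median of 3.09 in the list. Their −log10 q values were 2.36, 1.68 and 2.08, of which the first and last lay above the median of the list, 1.97. The first, from 36648635 to 36648963, was 2144 bp after the canonical start. Among genes of similar searched length, 13.6% (12.6% to 14.7%) had at least 3 peaks, and the flanks were dense too, with 4.55 peaks per 100 kb.

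*CDKN1B* (ENSG00000111276; chromosome 12, 12838432 to 12875303, plus strand) had 1 peak of 206 bp, from 12844637 to 12844842. Its fold enrichment was 2.83 and its −log10 q 1.40, and 21.3% of all peaks had a lower fold enrichment. The gene record begins 31870 bp before the canonical transcript, and the peak lay 25460 bp from the canonical start. It also overlapped *GPR19*, a receptor gene on the other strand, whose canonical start at 12849117 was nearer, 4275 bp from the peak. To which of these genes the peak relates cannot be told from positions. By the canonical transcript, *CDKN1B* would have no peak in the searched stretch.

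*CDKN2A* (ENSG00000147889; chromosome 9, 21967751 to 21995300, minus strand) had 1 peak of 1794 bp, from 21986084 to 21987877. Its fold enrichment was 3.46, above 77.5% of all peaks, and its −log10 q was 2.61, above 73.4%. The start of the gene record, on the ARF side, and the canonical start at 21974856 lie 20444 bp apart, and the peak lay between them, 7423 bp from the former and 11228 bp from the latter. Its flanks were sparse, with 0.7 peaks per 100 kb in 1000000 bp on either side, the lowest of the 10 genes. The peak overlapped a long non-coding RNA on the opposite strand as well. It held an AP-1 match near its centre (chr9:21986920-21986970), shown with a match in a peak of *CDK6* intron 5 that lay farther from its centre (chr7:92262847-92262897).

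CDKN2A: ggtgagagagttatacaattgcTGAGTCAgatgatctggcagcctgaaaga

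CDK6: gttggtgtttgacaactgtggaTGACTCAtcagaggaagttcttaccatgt

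*MYC* (ENSG00000136997; chromosome 8, 128747680 to 128755197, plus strand) had no peak in the gene itself. Its only peak, from 128742143 to 128742314, was 172 bp long and ended 5366 bp before the gene start, inside the long non-coding RNA gene *CASC11*. With a fold enrichment of 2.78 (−log10 q of 1.44) it was the weakest of the 24 by fold enrichment, which lay above that of 17.6% of the list. No other peak lay within 85467 bp on the side before the searched stretch or 52086 bp after the gene.

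*MDM2* (ENSG00000135679; chromosome 12, 69201957 to 69239324, plus strand) had 1 peak in intron 10, from 69232427 to 69232920, at the far end from its start. Its fold enrichment was 2.95, above 35.3% of the list, and its −log10 q was 1.49, above 21.9%. The nearest edge of that peak was 30470 bp from the gene start.

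*TERT* (ENSG00000164362; chromosome 5, 1253262 to 1295183, minus strand) had 1 peak, wholly inside intron 2, from 1290231 to 1292121. Its fold enrichment was 3.35, its −log10 p 5.68 and its −log10 q 3.05, and 70.8% of all peaks had a lower fold enrichment. Its edge lay 3062 bp after the gene start, at which no peak was listed. Among genes of similar searched length, 39.0% had a peak at least as strong.

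The reference sequence under the *TERT* peak is a tandem repeat. It held 27 E-boxes, and 18 of the 26 spacings between neighbouring ones were 42 bp and 25 were a multiple of it. Of the bases in the peak, 81.7% were the same as the base 42 bp further on, against 27.8% in the 3000 bp on its right. Only 4 of 60099 peaks, this one included, held at least as many E-boxes (0.00666%, 0.00259% to 0.0171%). The repeat went on beyond the peak on the left, where 23 more E-boxes belonged to the same run, which spanned 3301 bp from 1288567 to 1291867. Nearly 4 units are printed (chr5:1290791-1290944) to show the repeated E-box.

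TERT intron 2: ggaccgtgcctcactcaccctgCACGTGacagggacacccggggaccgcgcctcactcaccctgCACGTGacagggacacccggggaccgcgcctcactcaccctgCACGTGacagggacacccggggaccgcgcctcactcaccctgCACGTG

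The authors kept reads with a single best position, which limits what can be placed in a repeat. How that bears on the *TERT* peak was not tested. The number of repeat units in 501Mel was not measured either, and the reference sequence is what was searched.

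**Figure D4:**
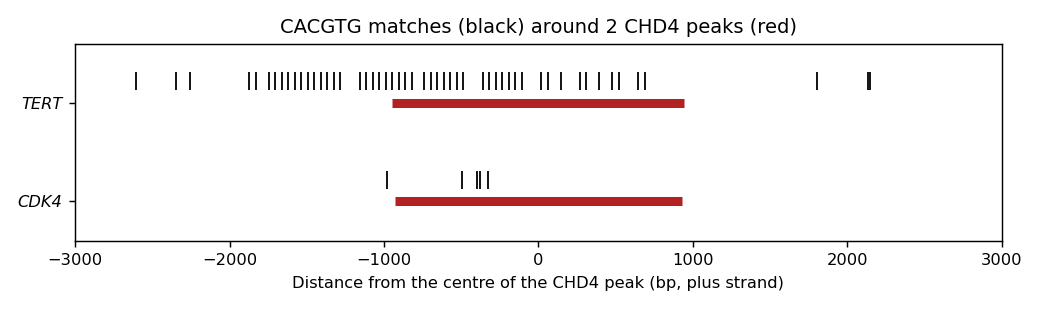
Positions of CACGTG (black ticks) within 3000 bp of the centre of the *TERT* intron 2 peak and of the *CDK4* peak over the canonical start (red bars), in bp along the plus strand. In *TERT* the 27 matches in the peak follow each other at regular steps and go on to its left, and in *CDK4* 4 matches gather in 174 bp.

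Over all 24 peaks the motifs were no more frequent near the centre than in the list. Within 250 bp of the peak centre, 1 of 24 peaks held an E-box (4.17%, 0.739% to 20.2%), that of *TERT*, against 7.97% of all peaks. In whole peaks it was 4 of 24, at *TERT*, *CDK4* and both peaks of *CCND1*, against 12.6%. An AP-1 match lay within 250 bp of the centre of 4 of 24 peaks (16.7%, 6.68% to 35.9%), at *CCND1*, *CDKN2A* and 2 peaks of *CDK6*, against 18.1% of all peaks. For the *CDK6* peak from 92261012 to 92261190, which is 179 bp long, that match lay outside the peak. In whole peaks it was 6 of 24, against 26.6%. The pattern is wider than the AP-1 site. The match in the *CDK2* peak was TGATTCA, and those in the *CDK6* peaks from 92336670 and 92325777 were TGAATCA. *CDKN2A* held TGAGTCA, and the *CDK6* peak from 92262339 held TGACTCA besides TGATTCA. The middle letter was not separated in these shares. These are matches of letters and show no bound factor.

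The other genes of these pathways were counted in 7 lists, with the 10 genes left out. Of 66 genes, 49 had a peak (74.2%, against 63.4% of protein-coding genes) and 33 had a peak at the start (50%, against 33.9%), and their median number of peaks was 1, as over protein-coding genes. Among the cyclins, 5 of 9 had a peak. *CCND3*, which encodes cyclin D3, had 12 peaks, the strongest at 4.41, whereas *CCND2*, *CCNA1*, *CCNB1* and *CCNB3* had none. Of the other kinases and activators, 5 of 7 had a peak. *CDC25B*, a phosphatase that activates cyclin-dependent kinases, led with 4 peaks and a fold enrichment of up to 4.32, and *CDK1* and *CDK7* had none. Of the other inhibitors, 3 of 4 had 3 peaks each, all with a peak at the start, and *CDKN2D* had the strongest at 3.86. *CDKN2B*, which lies next to *CDKN2A*, had none.

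In the RB and E2F list 11 of 13 genes had a peak (84.6%, against 63.4% of protein-coding genes). Each of the 11 had at least 1 at a q of at most 0.01, against 48.4% of protein-coding genes. The median searched length was 54322 bp in this list and 37256.5 bp over protein-coding genes. *RB1* had 24 peaks over 305693 bp, and *TFDP1*, the partner of E2F factors, had the strongest at 5.19. *E2F5* and *E2F7* had none. In the MYC network 8 of 10 had a peak, led by *MXI1*, an antagonist of MYC, with 10 peaks and by *MAX*, the partner of MYC, with a fold enrichment of 4.11, and *MYCN* and *MXD4* had none.

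In the p53 pathway 10 of 12 genes had a peak (83.3%, against 63.4% of protein-coding genes) and 9 had it at the start (75%, against 33.9%). *SESN1* had 12 peaks, and *BBC3*, which encodes the pro-apoptotic protein PUMA, had the strongest at 5.03. *TP63* and *RRM2B* had none. Among telomerase and shelterin genes 7 of 11 had a peak, led by *TERF2* with 9 peaks and *NOP10* at 4.13, and *GAR1*, *NHP2*, *POT1* and *TERF1* had none. Genes of different length were not made comparable in these counts, and some neighbours share a peak.

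**Figure D5:**
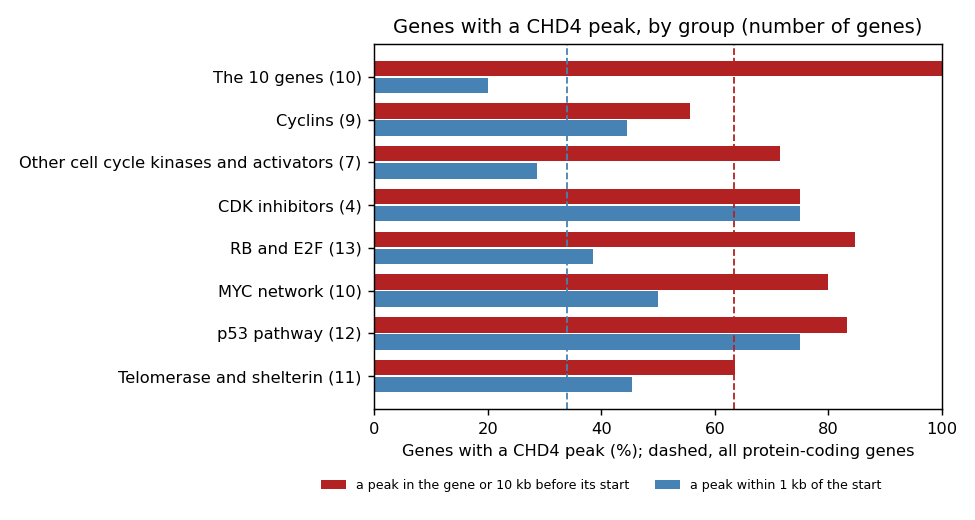
Share of genes with a CHD4 peak (x axis, %) for the 10 genes and 7 lists of other genes, with the number of genes in brackets; red bars count a peak in the gene or 10 kb before it, blue bars a peak within 1 kb of the start, and dashed lines give all protein-coding genes (63.4% and 33.9%). The 10 genes have the highest red bar, at 100%, and the lowest blue bar, at 20.0%.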

How the data were processed

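ChIP-seq for CHD4 was made from 501Mel cells with 1 ChIP and 1 input library. The authors aligned 50-base reads to hg19 (Bowtie) and made a broad peak call (MACS2), extending reads to 151 bp; the submitters' processing notes name Bowtie 1.0.0, MACS2 2.1.1.20160309 and bcl2fastq 2.17.1.14. The paper's reporting summary gives a q of 0.01 as a setting of the call, and every listed peak was used here, whatever its listed q. Whether the input served as control for the call is not given in the sources used here. The deposited list gives for each peak the authors' fold enrichment (a ratio of ChIP to background), the −log10 p and −log10 q of the authors' peak caller, and the authors' score, which is derived from q and was not used. It holds no read counts per peak, so intervals on single peaks were not computed.

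Peaks were overlapped with GENCODE release 44 mapped to GRCh37, counting from 1. Genes compared with were the 20098 protein-coding genes of chromosomes 1 to 22 and X, and similar length meant within 25%. Motifs were searched in GRCh37 sequence. The sequence under the *CCND1* start peak is not reported here. Overlap counting and intervals were tested on simulated data. The members, gene lists and tests were chosen with earlier results of these data known. The text names the 10 genes, for each list the genes with the most peaks, the strongest peak or none, and genes sharing a peak. Alternatives covered peak thresholds, searched lengths, joined peaks and starts. Python 3.11.15, numpy 2.4.6, pandas 2.3.3, scipy 1.17.1 and matplotlib 3.10.9 were used.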

Additional observations from a re-analysis of the deposited data

How the results depend on the processing

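No paired analysis was possible because only a single ChIP library was called and nothing here is tested. At a −log10 q of 5 or more, the members with a peak fell from 10 to 0, the peaks from 24 to 0 and the members with a peak at the start from 2 to 0. With a q of at most 0.01 they became 7, 16 and 1, the last being *CCND1*. Of protein-coding genes, 20.9% had a peak of that q at the start and 1.51% one of a −log10 q of 5 or more. Within 5000 bp of the start, 5 members had a peak, with *TERT*, *CDK2* and *CDKN1A* added, against 46.0% of protein-coding genes, and at any transcript start 3, against 42.6%. Searching 2000 to 50000 bp before the start, both sides, peak centres or joined peaks left 9 or 10 members and 22 to 35 peaks, against 58.5% to 75.6% of protein-coding genes. Of the alternatives added after seeing the data, the canonical transcript left 8 members, without *CDKN1B* and *CDKN2A* (62.1% of protein-coding genes), and counting only peaks that overlap no other gene left 6 members and 19 peaks, without *MYC*, *CDK2*, *CDKN1B* and *CDKN2A* (45.9%). The share of protein-coding genes with a peak, 63.4%, became 58.5% with 2000 bp before the start, 48.4% with a q of at most 0.01 and 39.1% over all gene records. Peaks with an E-box rose from 1 to 4 when whole peaks were searched, a longer stretch for the long peaks and a shorter one for the short peaks. Ranked among peaks of its own chromosome, the peak of *MYC* stood above 8.11% in place of 17.6% of peaks and that of *CDKN1B* above 10.8% in place of 21.3%, and the cause was not tested. The rank of the strongest peak moved at all 10 members when ranked by −log10 q. Among peaks of a length within 25% of its own it also moved at all 10, upwards at 4. In that ranking the peak of *TERT* stood above 55.2% in place of 70.8% of peaks. That of *CCND1* stood above 57.4% in place of 74.2%, and that of *MDM2* above 50.7% in place of 35.3%. The median fold enrichment stayed between 3.06 and 3.38.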

Other observations

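The peaks of the 10 genes varied widely in base composition. Their GC content ran from 32.6% at *MDM2* to 67.3% at the *TERT* repeat, with a median of 46.1% against 43.8% in the list. The *CCND1* start peak had 56.9 CpG per 1000 bp and the *TERT* peak 69.8, against a median of 9.09 in the list. None of the 24 peaks followed an exon closely at both ends, but this was not counted over all peaks, so it has no share to be read against. Around the genes, the density of peaks in 1000000 bp on either side ran from 0.7 per 100 kb at *CDKN2A* to 4.55 at *CDKN1A*, with a median of 2.70 for protein-coding genes.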
